A study of Mus musculus with 48 samples.

Results

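The genes described here are the neutrophil primary granule and precursor genes Mpo, Elane, Prtn3, Ctsg, Ms4a3, Fcnb and Cebpe. They were taken by name from the UMI matrix, and all 7 were found among its 34586 genes. A UMI (unique molecular identifier) count is the number of distinct captured mRNA molecules of a gene in a cell. The question was in which organs and cell-type labels these genes were found, and whether their levels differed between arthritic and healthy mice.

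The cells came from male DBA1/J mice aged 8 to 12 weeks, an inbred strain used for collagen-induced arthritis (CIA). The 6 CIA mice were given bovine collagen II in complete Freund's adjuvant near the tail base, then a booster in incomplete Freund's adjuvant on day 20, and the 4 healthy control mice received saline. Whole knee joint, limb muscle, lung, skin and spleen were frozen, thawed and run on Seq-Well microwell arrays, which gave 48 samples, since the joints of mice H6 and S2 are not among them. By arthritis score, 3 CIA mice were severe and 3 mild. The severe CIA mice S1, S2 and S3 and the healthy mouse H3 carry the experiment name 2CIA in the labels, whereas the mild CIA mice S5, S6 and S8 and the healthy mice H4, H6 and H7 carry the name CIA. In consequence, severity and experiment cannot be told apart among the arthritic mice. Nothing in the labels or methods used here says whether bone marrow was removed from the knee joints or whether bone was in the muscle samples.

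The matrix holds 13240 cells with 401 to 9983 UMIs each, of which 12096 carry a cell-type label from the authors and were used below, with a median of 675 UMIs per cell. Per sample, the labelled cells sum to between 17748 and 1645734 UMIs in 30 to 1989 cells. Of 13164 distinct barcodes, 59 occur in more than 1 sample. Levels are given as CPM, i.e. a gene's UMIs per 1000000 UMIs of the labelled cells in that sample, and a mouse is the unit of replication. Intervals and upper limits cover counting error only. In sums over a whole sample, fewer cells of a type and less RNA per cell cannot be told apart.

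Neutrophils arise in bone marrow from granulocyte-monocyte progenitors through the promyelocyte, myelocyte and metamyelocyte stages, and granule contents are made in that order. The primary (azurophil) granules are filled first, at the promyelocyte stage. They hold myeloperoxidase (Mpo), which makes hypochlorous acid, and the serine proteases neutrophil elastase (Elane), proteinase 3 (Prtn3) and cathepsin G (Ctsg). Ms4a3 encodes a membrane protein of granulocyte-monocyte progenitors that is widely used to trace their progeny. Fcnb encodes ficolin B, a pattern-recognition lectin of maturing neutrophils, and Cebpe encodes the transcription factor that drives the secondary (specific) granule programme with Ltf, Camp, Ngp and Lcn2. Mature neutrophils in blood and tissue have largely ceased to transcribe the primary granule genes. Within the neutrophil lineage their transcripts therefore mark immature cells, although they are not confined to that lineage.

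The genes are spread over several chromosomes in GRCm38. Prtn3 (chr10:79879667-79883174) and Elane (chr10:79886312-79888216) are neighbours on the plus strand, 3137 bases apart. Mpo lies at chr11:87793784-87804412, Ctsg at chr14:56099885-56102574, Cebpe at chr14:54710363-54712174, Fcnb at chr2:28076479-28084910 and Ms4a3 at chr19:11629499-11640851. Promoter sequence from RefSeq (GRCm38.p6) was matched for 6 of the 7 genes, Cebpe being the one without an entry. The bases before each transcription start are shown because the genes fall below into groups by cell-type label. Capitals mark GAGGAA, the core bound by ETS factors such as PU.1, and TTGCNNAA, a form of the C/EBP consensus, each searched on both strands as GAGGAA or TTCCTC and as TTGCNNAA or TTNNGCAA. The motifs share no letters with each other in these windows.
Mpo, chr11:87793534-87793783, plus strand: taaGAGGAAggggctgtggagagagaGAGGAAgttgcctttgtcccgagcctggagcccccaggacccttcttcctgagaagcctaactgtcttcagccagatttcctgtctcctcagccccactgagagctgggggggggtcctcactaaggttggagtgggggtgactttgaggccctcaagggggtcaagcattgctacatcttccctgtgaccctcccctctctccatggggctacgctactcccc
Elane, chr10:79886062-79886311, plus strand: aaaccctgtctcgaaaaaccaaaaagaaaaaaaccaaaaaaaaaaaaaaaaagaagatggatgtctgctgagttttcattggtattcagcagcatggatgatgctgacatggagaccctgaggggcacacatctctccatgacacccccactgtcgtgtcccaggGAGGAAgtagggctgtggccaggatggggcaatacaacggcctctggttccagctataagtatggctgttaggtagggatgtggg
Prtn3, chr10:79879417-79879666, plus strand: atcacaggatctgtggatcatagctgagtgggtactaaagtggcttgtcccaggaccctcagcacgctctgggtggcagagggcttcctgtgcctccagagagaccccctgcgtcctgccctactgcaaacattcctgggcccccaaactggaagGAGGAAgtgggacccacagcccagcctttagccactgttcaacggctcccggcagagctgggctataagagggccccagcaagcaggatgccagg
Ctsg, chr14:56102575-56102824, minus strand: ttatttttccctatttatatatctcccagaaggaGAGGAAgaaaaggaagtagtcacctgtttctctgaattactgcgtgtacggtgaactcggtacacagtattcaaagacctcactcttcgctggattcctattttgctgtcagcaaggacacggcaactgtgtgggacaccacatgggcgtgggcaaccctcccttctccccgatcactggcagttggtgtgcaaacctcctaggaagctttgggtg
Ms4a3, chr19:11640852-11641101, minus strand: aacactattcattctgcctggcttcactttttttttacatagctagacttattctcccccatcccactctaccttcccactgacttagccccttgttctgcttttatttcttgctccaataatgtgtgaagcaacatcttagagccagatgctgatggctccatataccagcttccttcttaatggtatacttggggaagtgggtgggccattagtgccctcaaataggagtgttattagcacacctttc
Fcnb, chr2:28084911-28085128, minus strand: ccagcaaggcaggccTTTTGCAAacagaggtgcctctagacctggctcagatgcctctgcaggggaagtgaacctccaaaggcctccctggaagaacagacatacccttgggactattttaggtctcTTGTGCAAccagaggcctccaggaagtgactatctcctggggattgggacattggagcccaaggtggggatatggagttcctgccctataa

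GAGGAA was found in 4 of the 6 promoters, namely at 2 places in Mpo and at 1 place each in Elane, Prtn3 and Ctsg. TTGCNNAA was found in Fcnb alone, at both capitalised places, and the Ms4a3 window held neither. The Fcnb run has 218 bases because its last bases lie within the outermost gene model and were left out, the others having 250. Among all 32851 RefSeq mouse promoters of the same length, 23.3% hold GAGGAA, 9.56% hold TTGCNNAA and 2.07% hold both. These are letter matches and were not tested for binding.

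The 7 genes were rare. Over the labelled cells, Fcnb had 1840 UMIs, Elane 1341, Mpo 714, Prtn3 649, Ms4a3 557, Cebpe 442 and Ctsg 336. The UMIs of the primary granule genes were concentrated in few cells, as 24 cells held 50% of all Elane UMIs, 25 held 50% of Mpo and 23 held 50% of Ctsg. A single cell had 101 Elane UMIs, the highest count of any member in any cell. Cebpe was spread more thinly: 107 cells held 50% of its UMIs, no cell had more than 8, and 74.7% of the 328 cells with Cebpe had 1 UMI.

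The transcripts were found in joint, spleen and muscle. Summed over the 7 genes, joint had 2553 UMIs, spleen 2204, muscle 1092, lung 29 and skin 1, so that joint held 43.4% of the UMIs, spleen 37.5%, muscle 18.6% and lung 0.493%. Relative to all UMIs of each organ, pooled over its samples, the sum was 1033 CPM in joint, 807 CPM in spleen, 291 CPM in muscle, 53.9 CPM in lung and 0.870 CPM in skin. These pooled levels lean on the largest samples: S2 gave 1524 of the spleen UMIs, and without it the pooled spleen level was 364 CPM, while muscle without S6 had 458 CPM. They also mix groups of opposite order, since the median of the healthy mice was 958 CPM in muscle, 111 CPM in joint and 96.4 CPM in spleen. The single skin UMI, of Prtn3 in a severe CIA mouse, is below the 2.61 CPM that 3 UMIs would give. Against that limit, the pooled joint level was at least 118-fold higher for Fcnb, 101-fold for Elane, 46.7-fold for Mpo, 38.3-fold for Ms4a3, 36.9-fold for Prtn3, 33.3-fold for Cebpe and 22.02-fold for Ctsg. In an edgeR fit over all 48 samples, all 7 members were higher in joint than in skin, where 22.6% of 4878 genes tested differed in either direction. Against lung 5 of 7 were higher in joint, with 16.4% of all genes called, and Prtn3 (adjusted p = 0.138) and Ctsg (adjusted p = 0.0615) did not pass. No member differed between joint and spleen, where 33.8% of genes were called, with log2 differences from -0.26 to 1.18. None differed between joint and muscle either, where 10.1% of genes were called, with log2 differences from 0.08 to 1.28. The order of joint, spleen and muscle is thus not settled by these samples, whereas skin lay below joint for each of the 7 genes.

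In lung, Prtn3 (13 UMIs) and Fcnb (12 UMIs) made up most of the 29, and Ctsg and Ms4a3 were not detected, which allows up to 5.57 CPM over the pooled lungs. Of the lung Prtn3 UMIs 10 were in cells labelled Macrophages and 2 in Granulocytes. Lung Prtn3 was 68.8 CPM in S1, 14.3 in S2, 82.0 in S5, 113 in S8, and 0 in S3, S6 and all 4 healthy mice. The 4 lungs with Prtn3 were all from CIA mice, and the pooled CIA level was at least 3.58-fold above what 3 UMIs would give in the healthy lungs. The difference did not pass the test (adjusted p = 0.232 in the fit of every lung gene with a UMI, which called 0.435% of genes, while 4.96% were called with the filter, two-sided exact permutation p = 0.143, n = 4 healthy and 6 CIA), and neither did that of lung Fcnb (adjusted p = 0.314). With a single member UMI in skin, no disease comparison could be read there, where edgeR called 0% of 2180 filtered genes and 0.152% of all genes with a UMI.

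**Figure D1:**
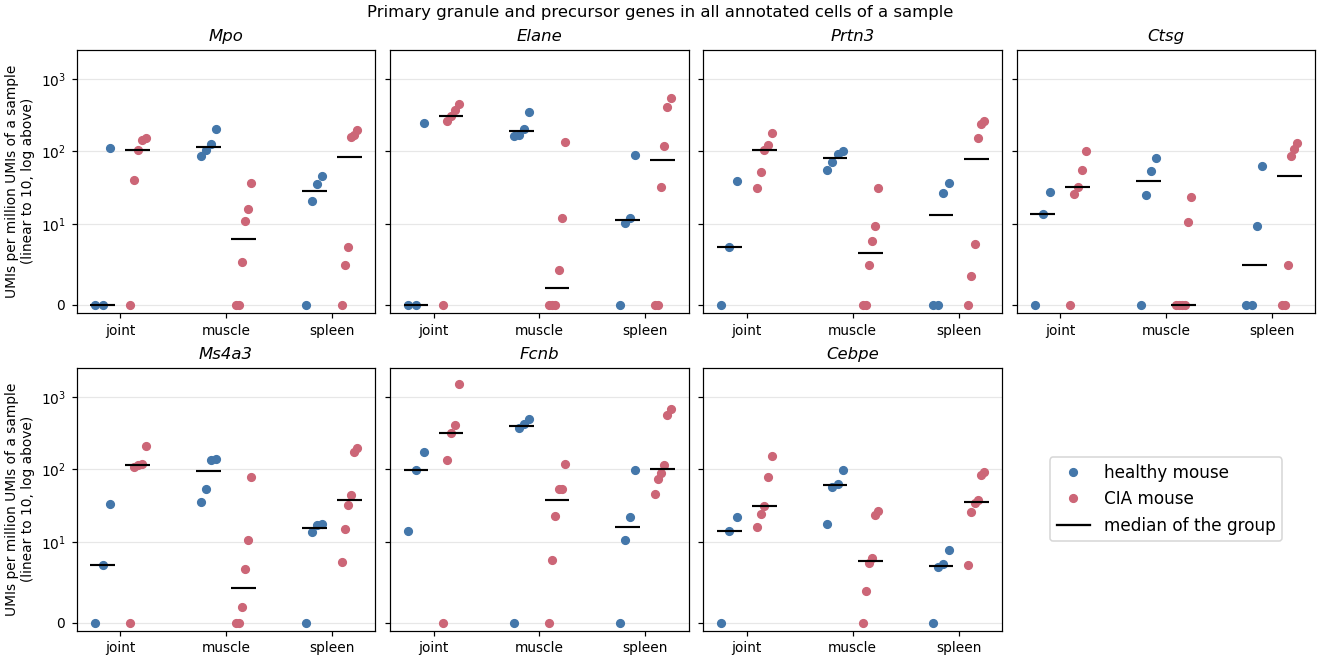
Level of each of the 7 genes in each sample of joint, muscle and spleen, in CPM on an axis that is linear near 0 and logarithmic above, with 1 point per healthy or CIA mouse and a line at the median of the group. All 4 healthy muscle samples lie above all 6 CIA muscle samples for Mpo, Elane and Prtn3, and the groups overlap in joint and spleen.

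Muscle gave the clearest separation between groups, with all 7 genes lower in CIA. Muscle Mpo was 125 CPM in H3, 202 in H4, 87.7 in H6 and 104 in H7, and its lowest, median and highest levels in the 6 CIA mice were 0, 8.11 and 36.8 CPM. Muscle Elane was 161, 353, 206 and 170 CPM in H3, H4, H6 and H7, and its lowest, median and highest CIA levels were 0, 2.12 and 135 CPM. Muscle Prtn3 was 71.5, 101, 91.6 and 54.97 CPM in the same healthy mice, and 0, 6.40 and 31.8 CPM in CIA. For these 3 primary granule genes every healthy muscle lay above every CIA muscle, and the exact permutation p of each was 0.00952, the smallest that 4 against 6 mice can give for a two-sided test. The CIA mouse S3 had the highest Elane and Prtn3 among the arthritic muscles, and no member was detected in the muscle of S1.

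The other 4 genes overlapped between the groups in muscle. Ctsg was 0, 81.9, 53.4 and 24.7 CPM in H3, H4, H6 and H7, and was detected in 2 of 6 CIA mice, S3 with 23.9 CPM and S8 with 10.6 CPM. Ms4a3 was 53.6, 139, 134 and 35.7 CPM in the healthy mice, above 5 of 6 CIA mice but not above S3 with 79.6 CPM (exact permutation p = 0.0381). Cebpe was 17.9, 56.7, 99.2 and 63.2 CPM in the healthy mice and 26.4 CPM in the highest CIA mouse, S8 (exact permutation p = 0.0286). Fcnb was 0 CPM in H3 but 368 to 491 CPM in the other 3 healthy mice, against 0 to 119 CPM in CIA (exact permutation p = 0.0667). The overlap of Fcnb and Ctsg came from H3, which had neither, although its Mpo was within the range of the other healthy mice.

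Summed over the 7 genes, healthy muscle had 942 CPM ± 422 (SD, n = 4) and CIA muscle 122 CPM ± 150 (SD, n = 6). In the edgeR fit the log2 differences, CIA minus healthy, were -3.45 for Mpo (SE 0.730, adjusted p = 0.292), -3.71 for Elane (SE 1.05, adjusted p = 0.408), -3.38 for Prtn3 (SE 0.629, adjusted p = 0.116), -3.21 for Ms4a3 (SE 0.942, adjusted p = 0.444) and -3.15 for Fcnb (SE 0.846, adjusted p = 0.369). None of these 5 passed, in a fit that called 0.055% of 3634 genes. Ctsg and Cebpe were removed by its filter on low counts and were read from a fit of every gene with a UMI. Calls depended on the fit, since the one of every gene with a UMI called 0.25% of genes and 6 of the 7 members, all but Cebpe. There Ctsg fell by 3.79 on the log2 scale (SE 0.862, adjusted p = 0.00727), a call that was lost with the experiment as a term (log2 difference -3.65, adjusted p = 0.110) and without H4 (adjusted p = 0.281), H6 (0.0892), S2 (0.145) or S6 (0.0971), and Cebpe had -2.22 (SE 0.635, adjusted p = 0.147). All 7 had an unadjusted p under 0.05, and DESeq2 called 1 of the 3 members it gave a value for, Mpo (adjusted p = 0.00852). Per the study's digestion protocol, red cell lysis was applied to the muscle of H6, H7, S2, S3, S6 and S8 but not of H3, H4, S1 and S5, so both groups hold both treatments. With lysis the summed level was 822 and 1095 CPM in the healthy mice against 23.3 to 414 CPM in CIA, and without it 429 and 1424 CPM against 0 and 115 CPM.

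In spleen all 7 genes were higher in CIA by the group mean, and the higher level was carried by the 3 severe mice. Spleen Prtn3 was 26.9, 36.5, 0 and 0 CPM in H3, H4, H6 and H7, and its lowest, median and highest CIA levels were 0, 79.9 and 260 CPM. Spleen Fcnb was 98.8, 21.9, 10.5 and 0 CPM in the healthy mice and 46.1, 102 and 688 CPM in CIA. Spleen Cebpe was 8.98, 7.30, 0 and 6.85 CPM in the healthy mice and 7.10, 36.0 and 91.6 CPM in CIA, with 5 of 6 CIA mice above all healthy mice. All 7 overlapped between the groups, and the exact permutation p was 0.0286 for Cebpe, 0.0381 for Fcnb, 0.0857 for Ms4a3 and 0.238 to 0.314 for the primary granule genes.

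The spread among the CIA spleens followed the severity label, which goes with the experiment. Summed over the 7 genes, S1, S2 and S3 had 704, 1767 and 2064 CPM, S5, S6 and S8 had 127 to 149 CPM, and the healthy mice 20.5 to 341 CPM. For 6 of 7 members, all but Cebpe, every severe mouse lay above every mild mouse, a split whose smallest exact p is 0.1. The healthy mouse of the same experiment as the severe mice, H3, had the highest spleen level of 5 of 7 members among the healthy mice, with Elane 89.8 CPM and Ctsg 62.8 CPM. With the 2CIA samples left out, the spleen log2 difference was above 0 for 4 members and below 0 for 3.

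In the edgeR fit of spleen 3 members passed the filter and none was called, in a fit that called 0.137% of genes. The log2 differences were 3.15 for Fcnb (SE 1.04, adjusted p = 0.405), 2.96 for Elane (SE 1.37, adjusted p = 0.769) and 1.86 for Ctsg (SE 1.28, adjusted p = 0.920). Calls depended on the fit here too, since the fit of every gene with a UMI called 0.747% of genes and 6 of the 7 members. The other 4 members were read from that fit, and all 4 rose. These were Prtn3 by 2.69 (SE 0.508, adjusted p = 4.37e-05), Ms4a3 by 2.71 (SE 0.565, adjusted p = 0.000444), Cebpe by 2.99 (SE 0.706, adjusted p = 0.00459) and Mpo by 1.93 (SE 0.489, adjusted p = 0.0140) on the log2 scale. DESeq2 called none of the 7, and 6 of 7 had an unadjusted p under 0.05 in edgeR. With the experiment as a term all 4 calls were lost, with log2 differences of -0.25 for Mpo (adjusted p = 0.922), 0.24 for Prtn3 (0.935), 1.49 for Ms4a3 (0.771) and 2.30 for Cebpe (0.249). Without S2 the calls of Cebpe (adjusted p = 0.338) and Ms4a3 (0.262) were lost. Those of Prtn3 and Mpo were lost without any one healthy mouse (adjusted p = 0.641 to 0.945), and that of Mpo also without S1, S2 or S3 (0.0595 to 0.664).

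In joint all 7 genes were also higher in CIA by the group mean, but 1 CIA mouse had almost none. Joint Prtn3 was 39.0, 7.13 and 0 CPM in H3, H4 and H7, and 124, 178, 105, 31.8 and 52.1 CPM in S1, S3, S5, S6 and S8. Joint Elane was 245, 0 and 0 CPM in the healthy mice and 261, 372, 304, 0 and 456 CPM in CIA. Joint Fcnb was 173, 14.3 and 97.3 CPM in the healthy mice and 136, 316, 407, 0 and 1497 CPM in CIA. S1, S3, S5 and S8 were above all healthy joints for Elane and Prtn3, and S6, with 3 UMIs of the 7 genes, fell among or below them.

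Joint Mpo was 111, 0 and 0 CPM in H3, H4 and H7, and 152, 40.5, 145, 0 and 104 CPM in S1, S3, S5, S6 and S8. Joint Ms4a3 was 33.4, 7.13 and 0 CPM against 108, 113, 120, 0 and 208 CPM in the same order. Joint Cebpe was 22.3, 14.3 and 0 CPM against 31.3, 24.3, 152, 15.9 and 78.1 CPM. Ms4a3 and Cebpe were above all healthy joints in the same 4 CIA mice, whereas Mpo was so only in S1 and S5.

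No joint difference passed the filtered test. The edgeR log2 differences were 2.93 for Ms4a3 (SE 0.932, adjusted p = 0.245), 2.61 for Prtn3 (SE 0.791, adjusted p = 0.207), 2.53 for Fcnb (SE 1.11, adjusted p = 0.429), 1.87 for Elane (SE 1.08, adjusted p = 0.550) and 1.42 for Mpo (SE 1.00, adjusted p = 0.607), in a fit that called 0.127% of genes. Cebpe (2.63, SE 0.812, adjusted p = 0.215) and Ctsg (2.16, SE 0.836, adjusted p = 0.441) came from the fit of every gene with a UMI, which called 0.274%, and did not pass either. That fit did call 2 members that the filter had kept, Fcnb (adjusted p = 0.0302) and Ms4a3 (adjusted p = 0.0344). In edgeR 5 of 7 had an unadjusted p under 0.05, and DESeq2 called none. The smallest exact permutation p was 0.0714, for Prtn3 and Cebpe, with 3 healthy and 5 CIA mice.

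The disease differences of muscle therefore ran against those of joint and spleen, and the difference itself was tested in the fit over 48 samples, an addition made after the values were seen. The CIA minus healthy difference was greater in spleen than in muscle for 6 of 7 members, where 1.21% of genes were called. These were Elane (log2 difference of differences 6.81, adjusted p = 0.0242), Fcnb (6.39, adjusted p = 0.00962), Prtn3 (5.81, adjusted p = 0.00767), Ms4a3 (5.69, adjusted p = 0.0223), Mpo (5.16, adjusted p = 0.0491) and Cebpe (5.16, adjusted p = 0.00796). Ctsg did not pass (5.69, adjusted p = 0.141). Against muscle, the joint difference was greater for 4 of 7 members, where 0.964% of genes were called, namely Prtn3 (5.98, adjusted p = 0.0255), Cebpe (4.84, adjusted p = 0.0323), Ms4a3 (6.15, adjusted p = 0.0331) and Fcnb (5.85, adjusted p = 0.0371). Joint and spleen gave 0 of 7, with 0% of all genes called by edgeR and 379 of 4878 genes at an unadjusted p under 0.05. The same mice gave the organs, and with the mouse as a block 3 members (Elane, Prtn3 and Ms4a3) were called for joint against muscle and 5, all but Ctsg and Mpo, for spleen against muscle. The joint against muscle calls rested on single mice: without H4, H6, H7, S1 or S5 no member was called, and without S8 1 was. The spleen against muscle calls fell to 0 without S2, to 1 without H4 or H6 and to 2 without H7. The experiment was not a term in these fits, so the contrasts do not separate disease from experiment and severity. In experiment CIA alone the spleen log2 difference was -2.36 for Mpo, -2.25 for Prtn3 and -1.42 for Ctsg, and above 0 for the other 4 members.

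**Figure D2:**
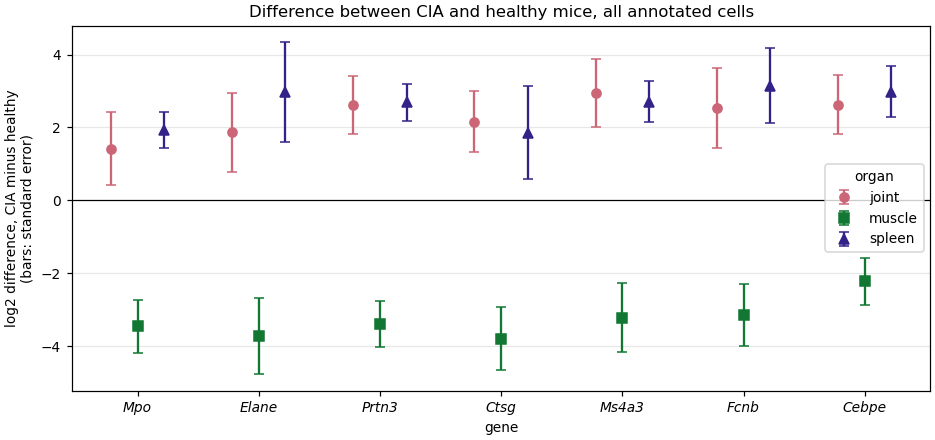
Log2 difference, CIA minus healthy, of each of the 7 genes in joint, muscle and spleen, with bars of 1 standard error from edgeR. Genes kept by the filter are from the filtered fit and the others from the fit of every gene with a UMI. All 7 lie below 0 in muscle (median -3.38) and above 0 in joint (median 2.53) and spleen (median 2.71).

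Other granule genes were examined in the same samples. The specific granule genes (Ltf, Camp, Ngp, Lcn2, Chil3 and others, 7 in all) had a median log2 difference of -2.60 in muscle, 1.74 in joint and 2.95 in spleen, against medians over all genes of 0.05, 0.02 and -0.01, and none of the 5 to 6 tested was called in any of the 3 organs. In muscle their summed level was 5182 to 18327 CPM in healthy and 202 to 4809 CPM in CIA mice, with no overlap. The disease difference of all 6 tested was greater in spleen than in muscle, e.g. Camp by 5.06 (adjusted p = 0.00250) and Ltf by 5.43 (adjusted p = 0.00338), and that of 5 of 6 was greater in joint than in muscle. The 9 gelatinase granule and mature neutrophil genes had medians of -2.16 in muscle (4 tested), 2.08 in joint (4 tested) and 0.17 in spleen (3 tested), the last well below the members' 2.71, and none was called in joint or spleen. In muscle 1 of them, the collagenase Mmp8, fell by 3.54 (SE 0.529, adjusted p = 0.0366). That call was lost in several alternatives, since no muscle gene was called with plain library sizes, with the experiment as a term or in experiment CIA alone. The same held without any one of S1, S2, S8, H4, H6 or H7. The 14 other azurophil granule and progenitor genes, which include widely expressed genes such as Calr and Srgn, had medians of -0.36 in muscle (7 tested), 0.85 in joint (6 tested) and -0.06 in spleen (6 tested), and none was called. Their disease difference passed in 0 of 9 between spleen and muscle. The cell cycle list had medians of -0.55 in muscle (5 tested), 0.97 in joint (3 tested) and 0.83 in spleen (6 tested), with none called.

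Other lineages of the bone marrow were measured beside them. The summed level of 6 B cell precursor genes was 34.3 to 87.95 CPM in healthy muscle and 0 to 127 CPM in CIA muscle, and that of 6 erythroid precursor genes 206 to 646 CPM and 89.2 to 835 CPM, so both lists overlapped between the groups. In spleen, the erythroid list was 147 to 868 CPM in healthy and 270 to 1784 CPM in CIA mice, and in joint 156 to 222 CPM and 89.0 to 271 CPM. The summed level of 4 megakaryocyte genes was 217 to 363 CPM in healthy joint and 13.02 to 61.05 CPM in CIA joint, without overlap. It was thus lower in CIA joint, opposite to the members. The groups overlapped in muscle (2.75 to 143 CPM healthy, 0 to 41.7 CPM CIA) and spleen (0 to 53.9 CPM healthy, 0 to 95.1 CPM CIA). The 1 megakaryocyte gene tested in joint had a log2 difference of -2.89 and was not called. None of the erythroid genes tested was called in any of the 3 organs and no B cell precursor gene passed the filter. The part of these lineages in the results was not tested. The share of cells labelled Granulocytes also differed between the groups: it was 7.14% to 28.0% in healthy muscle and 0.151% to 2.29% in CIA muscle, 0% to 2.42% in healthy spleen, 10.5% to 16.1% in severe and 1.67% to 3.36% in mild CIA spleen. In joint it was 3.14% to 13.9% in healthy and 14.0% to 54.2% in CIA mice. The groups were apart there by a narrow margin only. The lowest CIA joint, S6, had 8 Granulocytes of 57 cells (14.04%), and the highest healthy joint, H3, had 24 of 173 (13.87%). The joint of S6 had 47.8 CPM of the 7 genes.

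The genes did not share their cell-type labels. Of Cebpe UMIs 75.1% and of Fcnb UMIs 70.1% were in cells labelled Granulocytes. Of Mpo UMIs 49.2% were in cells labelled T cells, 29.8% in Dendritic cells and 6.86% in Granulocytes, and Ctsg had nearly the same split with 57.1%, 29.2% and 5.65%. Elane had its largest share, 47.7%, in Dendritic cells, Prtn3 was divided into 37.8% T cells, 26.8% Dendritic cells and 17.1% Granulocytes, and Ms4a3 into 34.3% Granulocytes, 28.0% Dendritic cells and 25.9% T cells. Cells labelled Neutrophils, a separate label of the authors, held 1.39% of the summed UMIs and Monocytes 1.22%. Mpo and Ctsg are known as genes of granulocyte and monocyte precursors, and the markers of these labelled cells were therefore examined.

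**Figure D3:**
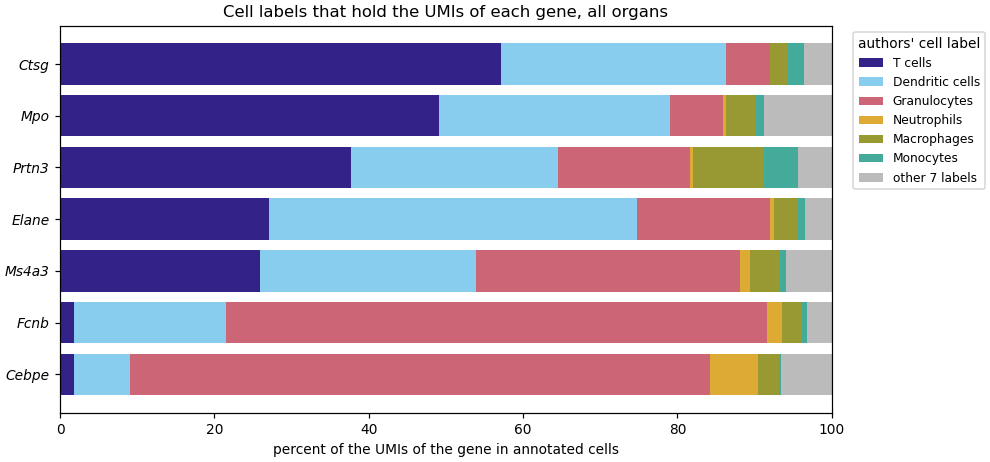
Percent of each gene's UMIs, over all labelled cells, that fell in each of the authors' cell-type labels, as stacked bars that sum to 100. Granulocytes hold 70.1% of Fcnb and 75.1% of Cebpe but 6.86% of Mpo, most of which is in T cells and Dendritic cells.

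To locate precursors cell by cell, a cell was called positive when it had UMIs of at least 2 of the 7 genes. There were 436 positive cells among the 12096 labelled cells. Joint had 173 of 2230 cells (7.76%, Clopper-Pearson 95% interval 6.68 to 8.95), spleen 176 of 3320 (5.30%, 4.56 to 6.12), muscle 86 of 4565 (1.88%, 1.51 to 2.32), lung 1 of 814 (0.123%) and skin 0 of 1167, which at the depth of these cells allows up to 0.257% of cells with such UMIs by a limit of 3 counts. Positive cells were deeper than the rest, with a median of 1636 UMIs in joint against 848 over all joint cells. With each cell thinned to 400 UMIs the shares were 3.09% in joint, 2.86% in spleen and 0.767% in muscle. Free RNA in the wells can give such UMIs, so the share was also taken in labels that should lack the genes, without T cells, a choice made after the values were seen. It was 6 of 918 cells in joint (0.654%, median 894.5 UMIs), 3 of 1654 in spleen (0.181%, 588.5 UMIs) and 4 of 950 in muscle (0.421%, 650 UMIs), and 0%, 0.121% and 0.105% after thinning. With T cells among these labels it was 3.80% in joint, 2.06% in spleen and 0.851% in muscle.

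The positive share differed between mice as the levels did. It was 2.86%, 10.1%, 7.30% and 4.01% in the muscle of H3, H4, H6 and H7, and its lowest, median and highest values in CIA muscle were 0%, 0.539% and 2.86%. In joint it was 4.05%, 0.629% and 0% in H3, H4 and H7, and 4.63%, 9.52%, 11.5%, 0% and 18.1% in S1, S3, S5, S6 and S8. In spleen it was 6.49%, 11.96% and 12.99% in the severe mice, 0.557%, 0.671% and 2.05% in the mild mice and 0% to 3.03% in the healthy mice. The groups overlapped in joint and spleen, and in muscle H3 had the same share, 2.86%, as the highest CIA mouse, S3. Positive cells were unevenly drawn from mice: 110 of the 173 in joint came from S5 and 109 of the 176 in spleen from S2.

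**Figure D4:**
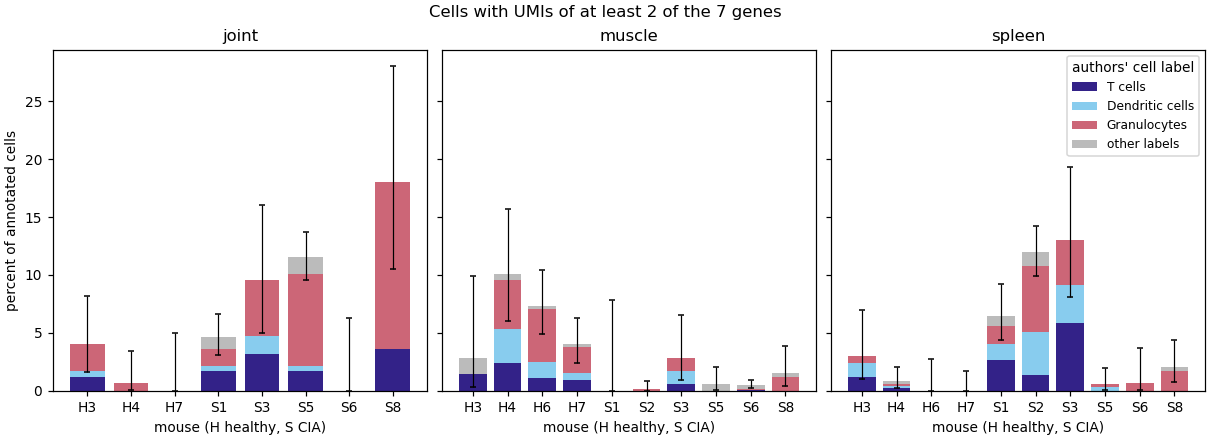
Percent of labelled cells with UMIs of at least 2 of the 7 genes in each joint, muscle and spleen sample (H healthy, S CIA), stacked by the authors' label, with Clopper-Pearson 95% intervals for the whole share. The 3 severe CIA spleens (6.49% to 12.99%) lie above the mild CIA and healthy spleens (0% to 3.03%).

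Of the 436 positive cells 224 (51.4%) were labelled Granulocytes, 86 (19.7%) T cells and 74 (17.0%) Dendritic cells, and the rest were spread over 8 further labels. As a share of the label, this was 18.6% of 1207 Granulocytes, 16.8% of 441 Dendritic cells, 5.29% of 170 Neutrophils and 4.81% of 1788 T cells, against 0.0729% of 1372 B cells and 0 of 1625 Myocytes. The detection of single genes differed between the labels. Mpo was found in 76.7% of the positive T cells, 60.8% of the positive Dendritic cells and 14.3% of the positive Granulocytes, and Ctsg in 69.8%, 47.3% and 5.36%. Cebpe ran the other way, with 3.49%, 25.7% and 61.2%, as did Fcnb with 16.3%, 71.6% and 91.1%. Elane was found in 81.1% of the positive Dendritic cells, more than in the positive T cells (61.6%) or Granulocytes (25.4%), and Ms4a3 in 52.3%, 58.1% and 46.4% of positive T cells, Dendritic cells and Granulocytes. The positive cells were selected on these genes, and the label came from clustering of the same cells, so the percentages are a description.

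**Figure D5:**
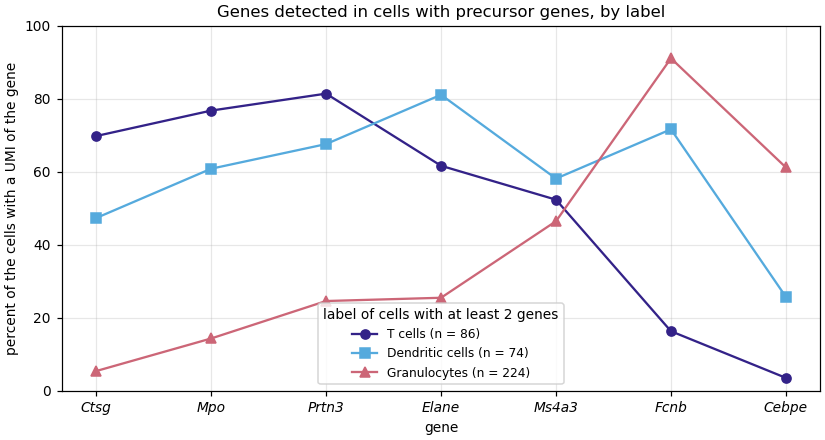
Percent of positive cells (UMIs of at least 2 of the 7 genes) in which each gene was detected, for cells labelled T cells (86), Dendritic cells (74) and Granulocytes (224). Mpo and Ctsg are most often found in the T cells, Elane in the Dendritic cells, and Fcnb and Cebpe in the Granulocytes.

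The positive cells labelled T cells had few T cell transcripts. In joint, muscle and spleen their summed level of 7 T cell genes (Bcl11b, Il7r, Lef1, Cd3e, Cd3g, Trbc2 and Trac) was 71.7 CPM, against 1012 CPM in the other cells with that label, and over the mice with such cells it ranged from 0 to 253 CPM. They had 1375 CPM of the monocyte and dendritic progenitor list against 564 CPM in the other T cells, e.g. Ms4a6c 395 against 65.8 CPM, F13a1 329 against 23.5 CPM and Ccr2 203 against 37.6 CPM. Plac8, a gene of myeloid progenitors, was 3790 against 585 CPM, and the cell cycle list 1417 against 808 CPM. Among the 9 mice with at least 3 such cells, the progenitor list ranged from 368 to 2833 CPM and was below the 564 CPM of the other T cells in 2, and the cell cycle list ranged from 394 to 2605 CPM and was below 808 CPM in 4. Specific granule transcripts were low in them, with 1453 CPM, compared with 74718 CPM in the positive Granulocytes. The basophil genes Mcpt8 or Prss34 were found in 12 of the 86 cells, 87 of the 102 Mcpt8 UMIs being in 1 cell. The organs of the positive and the other T cells differed, since 35 of 161 joint, 15 of 1283 muscle and 36 of 235 spleen T cells were positive. Most of the other T cells were thus from muscle, and the pooled levels above are not split by organ. By these pooled levels the label is not borne out by the T cell markers in the 86 positive cells. Those cells are referred to only by their label and genes.

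The positive cells labelled Granulocytes differed from the other Granulocytes in genes that did not select them. The gelatinase granule and mature neutrophil list was 1264 CPM in 223 positive cells against 8421 CPM in the rest, with Retnlg 823 against 6284 CPM, Mmp8 71.8 against 828 CPM and Ly6g 182 against 359 CPM. The cell cycle list was 1455 against 367 CPM, with Top2a at 315 against 52.3 CPM and Mki67 at 229 against 102 CPM. The specific granule list was 74718 against 59118 CPM, with Camp at 34003 against 24581 CPM and Ngp at 29288 against 23769 CPM. That pooled order did not hold in every mouse. Over 9 mice, the specific granule list in positive cells had a median of 66172 CPM (35918 to 90844). S1 (54687 CPM), S3 (35918 CPM) and S8 (52618 CPM) lay below the 59118 CPM of the other cells. The order of the gelatinase and cell cycle lists was the same in each organ. The gelatinase list was 1851 against 10260 CPM in joint, 934 against 5835 CPM in muscle and 535 against 3978 CPM in spleen. The cell cycle list was 1227 against 286 CPM in joint, 1068 against 357 CPM in muscle and 1998 against 661 CPM in spleen. Over 9 mice, the gelatinase list in positive cells had a median of 966 CPM (255 to 1892) and the cell cycle list a median of 1234 CPM (430 to 1974). The positive cells had a median of 1423 UMIs and the others 793, and these levels were not thinned.

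The positive cells labelled Dendritic cells were examined for genes of the conventional dendritic lineage. Flt3, Xcr1 and Clec9a had no UMI in them, and the class II gene H2-Ab1 had 498 CPM. No level of these genes in the other Dendritic cells is given, and the authors' dendritic markers are not given either. These values therefore do not show whether the positive cells differed from the rest of the label in dendritic genes. The positive cells had 148997 CPM of the 4 granulocyte markers of the authors (Camp, Ngp, S100a8 and S100a9) against 105888 CPM in the other Dendritic cells. That marker set was thus high in both. Of the 14 genes of the azurophil granule list, 4 are named here, and these were higher in the positive cells. The proteoglycan core Srgn was at 3047 against 1213 CPM and the granule membrane protein Cd63 at 1599 against 122 CPM. Serpinb1a, an inhibitor of the neutrophil serine proteases, was at 869 against 237 CPM, and the protease Prss57 at 197 against 0 CPM. The other genes of that list and its sum are not given. The gelatinase list was 614 against 2269 CPM. The positive cells of the 3 labels thus differed in their specific granule list, with 1453 CPM in the T cells, 12987 CPM in the Dendritic cells and 74718 CPM in the Granulocytes.

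Within labels, the positive share was also compared between diseases. In cells labelled T cells it was 33 of 132 in CIA joint (25.0%) against 2 of 29 in healthy joint (6.90%), 33 of 185 in CIA spleen (17.8%) against 3 of 50 (6.00%), and 2 of 933 in CIA muscle (0.214%) against 13 of 350 (3.71%). In Granulocytes it was 103 of 723 in CIA joint (14.2%) and 5 of 36 in healthy joint (13.9%), 72 of 233 (30.9%) against 2 of 12 (16.7%) in spleen, and 7 of 16 (43.8%) against 34 of 184 (18.5%) in muscle. These are pooled cells of several mice and were not tested. Depth differed too, e.g. a median of 1148 UMIs in CIA and 784.5 in healthy muscle Granulocytes. With each cell thinned as above, the positive shares of muscle Granulocytes were nearly equal, 6.25% (1 of 16) in CIA and 5.98% in healthy mice. In the same order they were 13.7% and 8.33% in spleen Granulocytes and 5.12% and 2.78% in joint Granulocytes. For T cells they were 13.6% and 0% in joint, 10.8% and 4% in spleen, and 0.214% and 1.43% in muscle. For a test, only the labels Granulocytes, Neutrophils, Dendritic cells and Monocytes were considered. Of these, only Granulocytes of joint and Monocytes of spleen had at least 5 cells in 3 mice of each group. Cells labelled T cells were not among the labels considered, so their differences were not tested. Their levels per mouse were available for 3 healthy and 5 CIA joints, 4 and 5 muscles and 4 and 4 spleens. In Granulocytes of joint no member was called by edgeR, with 0% of all genes called and 12 of 168 genes at an unadjusted p under 0.05, and Fcnb, the one member that passed the filter, had a log2 difference of 0.91 (SE 0.847, adjusted p = 0.850). In Monocytes of spleen, where 6.36% of the filtered genes and 0.485% of every gene with a UMI were called, no member was called, with log2 differences of 4.76 for Prtn3 (adjusted p = 0.145), 3.66 for Elane (adjusted p = 0.628) and 3.45 for Fcnb (adjusted p = 0.628).

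The genes whose level most resembled the summed level of the 7 over the 48 samples were granulocyte genes. Among 12895 genes with at least 50 UMIs, Pearson's r of log2(CPM + 10) was highest for Ifitm6 (0.907), Wfdc21 (0.892), Ngp (0.885), Camp (0.869), S100a9 (0.854), Trem3 (0.854), Cd177 (0.850), Ltf (0.849), S100a8 (0.845) and Slfn4 (0.837). The 48 points share organs and mice, and r is a description. Within cells labelled Granulocytes, over the 11 samples with at least 10 such cells, the highest of 2041 genes were Rpl14-ps1 (0.904), Cox6c (0.848), Rpl14 (0.831), Gm15500 (0.821), Rpl35 (0.817), Ssb (0.811), Rpl13 (0.806), Rpl4 (0.796), Rpl41 (0.793) and Gm10260 (0.792). Large-subunit ribosomal protein genes and Rpl14-ps1 make up 6 of these 10, and a processed copy such as Rpl14-ps1 can share reads with its parent gene.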

How the data were processed

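Per the study's methods, reads from Seq-Well libraries were demultiplexed with bcl2fastq, processed with Picard and the Drop-seq tools and aligned with STAR to GRCm38, although the submitters' processing notes list the builds GRCh38 and mm9. The authors deposited whole UMI counts per gene and cell together with a table of cell-type labels, made from denoised values and bulk references. Only the counts and labels were used, no coordinates are in these files, and no doublet caller was run. Cells without a label were left out of all sums. Counting did not resolve near-identical copies.

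UMIs were summed per sample and tested with edgeR 4.0.16 (quasi-likelihood, TMM, default filterByExpr) in R 4.3.3, with Benjamini-Hochberg adjustment over all genes tested and a threshold of 0.05. Members removed by the filter were read from a fit of every gene with a UMI in that organ. Single values were tested with two-sided exact permutations over mice (scipy 1.17.1), 23 tests in all. DESeq2 1.42.0, RLE and plain library sizes, no filter, all cells, the experiment as a term, experiment CIA alone, a mouse block and leaving out each mouse were the alternatives. Named genes are the 7 members, up to 4 genes with the most UMIs per list, and the 10 genes most correlated with the members; the genes named in the dendritic and T cell descriptions come from those lists. The members and lists were chosen with earlier results of these data known. Scripts were tested on simulated data. Mouse names mark the same animal in each organ, which pairs the organs: deviations of same-named samples had a median r of 0.166 between joint and muscle, 0.112 between joint and spleen and -0.0291 between muscle and spleen. One T cell marker used by the authors is not reported here and was left out of the T cell list.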

Additional observations from a re-analysis of the deposited data

Results flagged for a closer look

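Of 44 groups of 4 to 6 samples, 6 had a sample far from the others by Dixon's test. Its threshold flags about 1 in 20 groups of independent normal values. These values are not so, since many are 0 and several flagged groups share a sample. The number that chance would flag here is therefore not known. In the healthy spleens, mouse H3 stood apart with Elane at 89.8 CPM (next highest 12.2) and Ctsg at 62.8 CPM (next 9.73). In the CIA joints, S8 stood apart with Fcnb at 1497 CPM (next 407). In the CIA muscles, S3 stood apart with Elane at 135 CPM (next 12.3), Prtn3 at 31.8 CPM (next 9.73) and Ms4a3 at 79.6 CPM (next 10.6). H3 and S3 are of the same experiment, 2CIA, and S8 is of the other.

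The disease difference departed between organs for 10 gene and organ pairs by a test of the difference itself. Between joint and muscle it was 5.98 on the log2 scale for Prtn3, 6.15 for Ms4a3, 5.85 for Fcnb and 4.84 for Cebpe. Between spleen and muscle it was 5.16 for Mpo, 6.81 for Elane, 5.81 for Prtn3, 5.69 for Ms4a3, 6.39 for Fcnb and 5.16 for Cebpe. This test was added after the values were seen, and its calls rested on single mice. No member was called between joint and muscle without any one of H4, H6, H7, S1 or S5, nor between spleen and muscle without S2.

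Cells without a label were not used in any comparison. In spleen 6 of 239 unlabelled CIA cells (2.51%) had UMIs of at least 2 of the 7 genes, against 1 of 157 unlabelled healthy cells (0.637%).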

How the results depend on the processing

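The 7 genes kept their direction between CIA and healthy mice in all 110 alternatives in joint and all 122 in muscle, and in 122 of 126 in spleen. The 4 reversals were Mpo with the experiment as a term (-0.25) and, in experiment CIA alone, Mpo (-2.36), Prtn3 (-2.25) and Ctsg (-1.42), none of them called. Plain library sizes moved the median log2 difference of all genes from 0.02 to -0.18 in joint and from 0.05 to 0.24 in muscle, and in the fit of every gene with a UMI it was 0.35 in joint, 0.31 in muscle and 0.21 in spleen. Low depth limits the single values, since many samples have few UMIs of a member, and with 3 to 6 mice per group an effect has to be large to pass.

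The number of genes called moved in most organs. In joint it was 3 in the main test and 46 with DESeq2, 66 without the filter, 6 in all deposited cells, 1 in experiment CIA alone and 2 to 7 without 1 mouse. In muscle it was 2, and 14 with DESeq2, 1 with RLE, 0 with plain library sizes, 63 without the filter, 0 with the experiment as a term, 0 in experiment CIA alone and 0 to 3 without 1 mouse. In spleen it was 4, and 47 with DESeq2, 172 without the filter, 8 with the experiment as a term, 0 in experiment CIA alone and 0 to 14 without 1 mouse. In lung it was 34, and 78 without the filter, 8 in experiment CIA alone and 17 to 38 without 1 mouse. In skin it was 0, and 11 with DESeq2, 32 without the filter and 0 to 6 without 1 mouse. Between organs, 1650 became 3291 (joint against spleen), 495 became 795 (muscle) and 801 became 1211 (lung) without the filter, and joint against muscle gave 205 to 681 without 1 mouse. Within labels, Granulocytes of joint gave 0, 1 with DESeq2 and 0 to 4 without 1 mouse, and Monocytes of spleen 29, 45 with DESeq2 and 7 to 23 without 1 mouse. Without the filter, edgeR called 2 members in joint, 6 in muscle and 6 in spleen, where 0.274%, 0.25% and 0.747% of all genes with a UMI were called. The cause was not tested. Among the labels Granulocytes, Neutrophils, Dendritic cells and Monocytes, only Monocytes of spleen could be tested with at least 10 cells per mouse.

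With the mouse as a replicate block, 24 genes in place of 47 had a different disease effect in joint and muscle. Without 1 mouse the count was 0 to 72, and between spleen and muscle, 59 in the main test, 24 to 102. The block turned the joint minus spleen disease effect of Mpo to 0.42 and of Elane to 0.88 and the level difference of Prtn3 to 0.16 and of Ctsg to 0.12, none called. It changed no other direction. Without 1 mouse the joint minus spleen disease effect ranged from -1.60 to 0.25 for Cebpe, -0.20 to 0.69 for Ctsg, -1.58 to 4.89 for Elane, -1.85 to 0.069 for Fcnb, -1.70 to 5.93 for Mpo, -0.32 to 1.98 for Ms4a3 and -1.53 to 1.86 for Prtn3. The level difference joint minus spleen ranged from -1.74 to 1.48 for Elane, -2.79 to 0.95 for Mpo, -0.41 to 0.68 for Ms4a3 and -0.99998 to 0.63 for Prtn3, and joint minus muscle from -0.37 to 0.46 for Cebpe, -2.44 to 2.17 for Elane, -2.53 to 1.14 for Mpo, -0.49 to 0.98 for Ms4a3 and -0.19 to 1.01 for Prtn3. In Granulocytes of joint, Ctsg was -0.29 with DESeq2 and Mpo ranged from -0.72 to 4.51. With 1 UMI of any member in place of 2 members, the mean share of cells was 4.24% in healthy and 21.8% in CIA joint, 15.9% and 3.07% in muscle and 2.77% and 13.5% in spleen.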
